A study of Mus musculus with 75 samples.

Results

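The genes described here are 8 members of the mouse complement system, read by symbol from the deposited count tables. C3, C4b, Cfb and C2 encode components of the convertases that cleave C3, and Cfd encodes the protease that cuts Cfb. C5ar1 and C3ar1 encode the receptors of the cleavage fragments C5a and C3a, and Cd55 encodes a membrane protein that takes convertases apart. All 8 had a row in both tables, which hold 21076 and 21051 genes. All 8 passed the filter on low counts in each of the 3 experiments, so none was left out.

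Bulk Smart-seq2 RNA-seq was made from cells labelled EGC (enteric glial cells, the glia of the gut wall) of adult mice of both sexes. Every animal carried Plp1eGFP, a green fluorescent reporter transgene used to mark glia. The 75 libraries form 16 groups in 3 experiments. Untreated Plp1eGFP mice gave 22 libraries, from the myenteric plexus (between the muscle layers) of the small intestine (6) and colon (5) and from the submucosal plexus (under the mucosa) of the small intestine (6) and colon (5). Plp1eGFP mice killed 2 h after 1 intraperitoneal injection of lipopolysaccharide (LPS, a bacterial cell wall component) at 2 mg/kg, or of phosphate-buffered saline (PBS), gave 16 myenteric libraries, 4 in each of the small intestinal and colonic groups. Gpr37WT; Plp1eGFP mice (wild type for Gpr37, a receptor of glia) and Gpr37-/-; Plp1eGFP mice (knockout) killed 24 h after the same injections gave 37 myenteric libraries, with 4 to 6 in each of 8 groups.

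Complement is a cascade of serum and local proteins that marks microbes and debris for uptake. C4b and C2 form the convertase of the classical and lectin routes, and Cfb, cut by the protease Cfd, forms that of the alternative route. Both cleave C3, which releases C3a. C3a and C5a, a fragment of C5, attract and activate cells that carry C3ar1 and C5ar1. Cd55 speeds the decay of both convertases on the cell's own surface. C3 and C4b are made by astrocytes as well as by the liver, and the anaphylatoxin receptors are widely used as markers of myeloid cells.

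In the GRCm38 assembly with GENCODE M21, 4 members lie on chromosome 17, all on the minus strand: C4b (chr17:34728380-34743882), Cfb (chr17:34856374-34862518), C2 (chr17:34862604-34898265) and C3 (chr17:57203970-57228136). Cfb and C2 are neighbours, and both overlap the read-through gene model Gm20547 on the same strand, so reads shared with it cannot be assigned from these tables. Cfd lies at chr10:79890853-79892655 on the plus strand. C5ar1 (chr7:16246743-16259540), C3ar1 (chr6:122847138-122856161) and Cd55 (chr1:130439027-130462744) are on the minus strand. Cd55 overlaps the antisense gene Gm16083, whose reads cannot be told apart without strand. The near copies C4a and Cd55b were at most 2.43 and 0.770 CPM (read counts scaled to library size) in any library.

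The RefSeq promoter table (GRCm38.p6) held 5 of the 8 members, and the 250 bases before the start of 3 of them are printed 5′ to 3′. They are the 3 windows with 2 or more motif matches, and are shown for these. Capitals mark matches, on either strand, to the letters of 6 motifs. C3 (chr17:57228137-57228386, minus strand), C3ar1 (chr6:122856158-122856407, minus strand) and Cd55 (chr1:130462745-130462994, minus strand) read:
C3: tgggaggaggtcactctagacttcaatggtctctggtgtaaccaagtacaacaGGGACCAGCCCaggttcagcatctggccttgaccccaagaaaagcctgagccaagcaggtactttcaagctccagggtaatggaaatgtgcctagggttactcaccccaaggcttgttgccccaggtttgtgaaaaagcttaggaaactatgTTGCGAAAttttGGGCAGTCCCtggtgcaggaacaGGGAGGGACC
C3ar1: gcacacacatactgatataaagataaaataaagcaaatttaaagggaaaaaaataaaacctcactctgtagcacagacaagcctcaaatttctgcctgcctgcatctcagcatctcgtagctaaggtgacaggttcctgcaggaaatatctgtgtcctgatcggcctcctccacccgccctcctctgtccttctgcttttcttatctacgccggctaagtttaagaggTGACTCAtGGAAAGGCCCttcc
Cd55: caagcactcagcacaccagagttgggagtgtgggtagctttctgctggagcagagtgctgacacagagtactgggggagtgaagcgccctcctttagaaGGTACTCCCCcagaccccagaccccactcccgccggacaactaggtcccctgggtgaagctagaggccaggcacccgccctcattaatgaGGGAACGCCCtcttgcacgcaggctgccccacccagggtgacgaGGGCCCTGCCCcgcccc
The C3 window held TTGCGAAA, a match to the C/EBP letters TTGCNNAA, from base -45 to -38 counted back from the start, and 4 matches to the NF-kB letters GGG, any 5 bases, CC, of which 2 overlap. The C3ar1 window held the AP-1 letters TGANTCA once, from base -22 to -16, and the NF-kB letters once. The Cd55 window held 4 NF-kB matches, 2 of them overlapping. Of 32851 mouse promoter windows of this length, 45.8% held the NF-kB letters, 9.56% the C/EBP letters and 6.75% the AP-1 letters. The interferon response element GAAA, any 2 bases, GAAA (2.98% of windows), the gamma-activated site TTCNNNGAA (7.02%) and the PU.1 letters GAGGAAGT (2.44%) had no match in any of the 5 windows. Of the windows not printed, that of C5ar1 held none of the 6 motifs and that of Cfd held the NF-kB letters once. C4b, Cfb and C2 are named here without a sequence.

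Library totals ran from 1990744 to 33283346 counts. Gpr37 was at 0 to 0.802 CPM in the 18 knockout libraries and 0 to 17.4 CPM in the 19 wild-type libraries, of which 3, all LPS-treated, were at 0: small intestine of mouse 3 and colon of mice 5 and 8. The colonic library of mouse 3 was at 0.472 CPM, inside the knockout range, while the small intestinal library of mouse 8 was at 9.12 CPM. At 24 h, mice numbered 10 and below gave libraries with a median of 15.4% mitochondrial counts (n = 12), against 4.57% (n = 25) in mice numbered 11 and above, so the 24 h comparisons were also fitted within the second set. In wild-type colon all 4 PBS libraries and 2 of 5 LPS libraries belong to the second set. Summed glial markers (7 genes, among them Sox10 and S100b) were 1216 to 3085 CPM in the untreated myenteric libraries and 139 to 916 CPM in the submucosal ones. The submucosal libraries also carried 729 to 131709 CPM of 6 lymphocyte and plasma cell markers, against 3.07 to 1089 CPM in the myenteric ones. In the untreated small intestine the mitochondrial share was 11.6 to 18.8% in the myenteric and 2.84 to 9.43% in the submucosal libraries, without overlap. In the untreated colon it was 5.35 to 16.5% and 4.02 to 7.18%, which overlap. The part of this share in the differences between layers was not tested. In bulk libraries, fewer cells of a type and less RNA per cell cannot be told apart.

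The first question was how the members differ between gut sites without treatment. Per kilobase of exon, C4b and C3 were the 2 most abundant members in both myenteric sites, and the order changed in the submucosal sites. Median CPM per kilobase in the small intestinal myenteric plexus was 73.4 for C4b, 55.7 for C3, 14.2 for C5ar1, 8.67 for Cfb, 5.63 for Cfd, 5.49 for C2, 4.86 for C3ar1 and 3.34 for Cd55. In the colonic myenteric plexus C4b (72.4) and C3 (67.7) again led, followed by Cd55 at 19.1, Cfb at 16 and C2 at 11.5 CPM per kilobase. In the small intestinal submucosal libraries C5ar1 (117) and C3ar1 (66.1) led, and C4b (32.1), Cfb (32) and C3 (21.3 CPM per kilobase) came next. In the colonic submucosal libraries C3 (45.1), C5ar1 (38.6), Cfb (37.7), C4b (32.2) and C3ar1 (31.2 CPM per kilobase) were neighbours whose libraries overlapped.

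**Figure D1:**
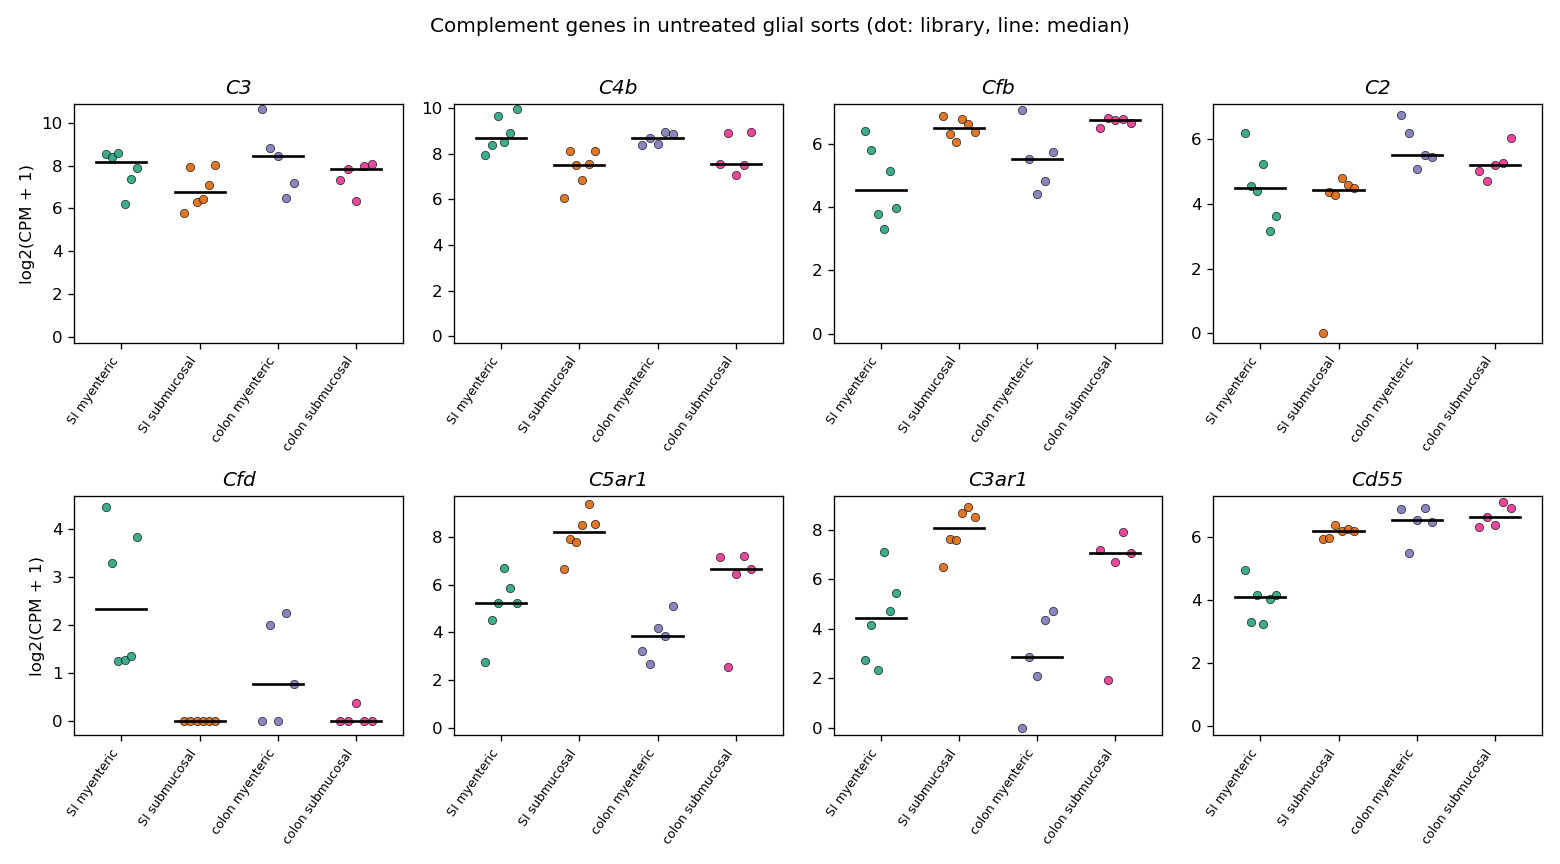
Levels of the 8 complement genes in 22 untreated libraries, as log2(CPM + 1) by site, 1 dot a library, with a line at the median of the group; SI is small intestine. C5ar1 and C3ar1 have higher medians in the submucosal than in the myenteric libraries of each region, with some libraries overlapping, Cd55 sits lowest in the small intestinal myenteric libraries, and Cfd is at 0 in all 6 small intestinal submucosal libraries.

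The C5a receptor gene C5ar1 was at 8.26, 5.44, 17.0, 13.4 and 33.4 CPM in the 5 colonic myenteric libraries and at 140.2, 4.94, 84.9, 145 and 99.1 CPM in the 5 colonic submucosal ones. It was at 5.86 to 103 CPM (median 36.5) in the small intestinal myenteric libraries and 101 to 653 CPM (median 301) in the submucosal ones. The submucosal libraries were thus higher, except colonic replicate 2, which lay below all myenteric colonic libraries, and 1 small intestinal pair of libraries that overlapped at the edge. C5ar1 was higher in the submucosal libraries in both regions, by a log2 fold change of 2.60 ± 0.72 (SE) in colon (adjusted p = 0.0131; adjusted p-values are Benjamini-Hochberg values over every tested gene, from edgeR's quasi-likelihood test) and 2.90 ± 0.66 in small intestine (adjusted p = 0.00124).

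The C3a receptor gene C3ar1 was at 0, 6.35, 3.29, 19.6 and 25.0 CPM in the colonic myenteric libraries and 145, 2.85, 102, 238 and 134 CPM in the colonic submucosal ones. It ran from 4.09 to 135 CPM (median 20.9) in the small intestinal myenteric and from 90.2 to 480.0 CPM (median 284) in the submucosal libraries. The same colonic submucosal replicate 2 stood below the rest, and small intestinal myenteric replicate 4 was the library at 135 CPM. C3ar1 was higher in the submucosal libraries by 3.51 ± 1.03 log2 in colon (adjusted p = 0.0189) and 2.94 ± 0.91 in small intestine (adjusted p = 0.0122), by 3.95 (adjusted p = 0.00225) without that myenteric library, and by 3.63 (adjusted p = 0.00148) with a replicate block. In the colon its adjusted p was 0.0509 when the colonic groups were fitted alone.

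Macrophage markers moved with both receptors. The summed CPM of 8 macrophage markers, among them Adgre1, Csf1r and Cd68, was 2262 to 14193 in the small intestinal submucosal and 140.4 to 2474 in the myenteric libraries. In the colon it was 175 to 7783 in the submucosal and 113 to 534 in the myenteric libraries. Colonic submucosal replicate 2, the library of low C5ar1 and C3ar1, had the 175 CPM and the highest glial sum of its group, 916 CPM. All 8 macrophage markers passed the test as higher in the small intestine and 7 of 8 in the colon. The part of these cells in the receptor values was not tested.

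Cd55 differed between the regions in the myenteric plexus. It was at 119, 44.1, 92.6, 121 and 88.2 CPM in the colonic libraries and 8.46 to 29.8 CPM (median 16.2) in the small intestinal ones, with no overlap. It was higher in colon by 2.52 ± 0.29 log2 (adjusted p = 5.74e-05, edgeR), the 1 member of 8 to pass, where 3.19% of all genes tested passed and 1.66% did so as higher in colon. Summed fibroblast markers were also higher in these colonic libraries, at 2899 to 13521 CPM against 1434 to 2369 CPM, with 4 of 7 passing, and 2 of 5 smooth muscle markers passed as higher. Summed neuronal markers were lower in them, at 123 to 293 CPM against 616 to 2349 CPM. The part of fibroblasts, smooth muscle and neurons in the Cd55 value was not tested. In the small intestine Cd55 was also higher in the submucosal libraries, at 61.0 to 83.4 CPM (median 72.8), again with no overlap (2.14 ± 0.28 log2, adjusted p = 6.2e-06). Glial, macrophage, epithelial and lymphocyte markers also differed between these layers, and their part in this Cd55 difference was not tested. The colonic submucosal libraries, at 78.8, 98.7, 83.0, 137 and 122 CPM, overlapped with the colonic myenteric ones.

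C4b, a component of the classical convertase, was lower in the small intestinal submucosal libraries. It was at 65.6 to 275 CPM (median 183) there and 248 to 999.9 CPM (median 418) in the myenteric libraries, ranges that overlap at 248 to 275 CPM. The log2 fold change was -1.55 ± 0.40 (adjusted p = 0.00328). Glial markers fell in the same libraries, with 7 of 7 passing as lower and a sum of 139 to 398 CPM against 1759 to 3085 CPM. Their part in the C4b value was not tested.

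Cfb, the alternative convertase component, was higher in the small intestinal submucosal libraries, at 66.5 to 117 CPM (median 90.5) against 9.03 to 85 CPM (median 24.5) in the myenteric ones (1.39 ± 0.47 log2, adjusted p = 0.0193). Epithelial markers were higher in the same libraries, with 6 of 6 passing and a sum of 1484 to 7841 CPM against 12.1 to 268 CPM in the myenteric ones, and their part in the Cfb value was not tested. In the colon the epithelial sum was 1878 to 7291 CPM in the submucosal and 4.71 to 2345 CPM in the myenteric libraries, with 2 of 6 passing as higher. In the colon Cfb was at 90.3, 112, 106, 111 and 101 CPM in the submucosal libraries and 134, 45.3, 20.3, 27.3 and 53.1 CPM in the myenteric ones. Myenteric replicate 1 was the only colonic myenteric library above the submucosal range, and Cfb did not pass in the colon, but did without that library and with a replicate block (adjusted p = 0.0446).

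Cfd, the protease that activates the alternative route and a product of adipocytes, was at no more than 21.0 CPM in any untreated library. It had no count in any of the 6 small intestinal submucosal libraries, where 3 counts would be 0.395 to 1.08 CPM, and was at 1.36 to 21.0 CPM (median 5.19) in the myenteric ones. Its level was at least 12.7-fold lower in the submucosal libraries when the mean of the myenteric libraries is set against a floor of 3 counts per library. Cfd reached the filter on low counts only through myenteric libraries, and was not tested without small intestinal myenteric replicate 1, 2 or 6 or with the compared groups alone, so its call (adjusted p = 0.000637) is given as a description. Adipocyte markers (7 genes) were lower in the same libraries, with a sum of 7.19 to 94.1 CPM against 166 to 669 CPM and no overlap. The 1 of them tested passed as lower (-3.13 log2), and their part in the Cfd value was not tested. In the colon it was at 0 to 3.76 CPM in the myenteric libraries and at 0 in 4 of 5 submucosal ones, the other at 0.289 CPM.

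C3 and C2 did not pass in any comparison of untreated sites. C3 was at 1576, 446, 348, 88.0 and 145 CPM in the colonic myenteric, 159, 232, 79.0, 253 and 267 CPM in the colonic submucosal, 72.5 to 379.8 CPM in the small intestinal myenteric and 54.6 to 259 CPM in the small intestinal submucosal libraries, ranges that overlap. C2 was at 32.5 to 105 CPM in the colonic myenteric and 8.01 to 71.3 CPM in the small intestinal myenteric libraries. In all, 2 of 8 members passed between the colonic layers, both higher in the submucosal libraries, where 21.8% of all genes passed and 10.7% did so as higher. In the small intestine 4 passed as higher and C4b as lower, where 43.5% of all genes passed, 22.3% as higher and 21.2% as lower. Cfd, which reached the filter only through myenteric libraries, is not counted here. Between colonic and small intestinal submucosal libraries 0 members passed by edgeR or by DESeq2, 1 had an unadjusted p under 0.05 (C5ar1, -1.77 log2, adjusted p = 0.143), and 5.18% of all genes passed.

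Other complement genes, a list of 42 of which 27 were tested in the untreated libraries, showed 14 higher and 3 lower in the small intestinal submucosal libraries, where 43.5% of all genes passed, and 9 higher and 2 lower in the colonic ones, where 21.8% passed. Those higher in both regions included C1qa, C1qb and C1qc, the subunits of the first classical component, Cfp, which stabilises the alternative convertase, and the complement receptor subunits Itgam, Itgax and Itgb2. C1qa was at 22.7 to 404 CPM in the small intestinal myenteric and 452 to 2609 CPM in the submucosal libraries (3.12 ± 0.76 log2, adjusted p = 0.00219). Cd59a, whose product blocks the membrane pore, fell from 379 to 476 CPM in the myenteric to 19.8 to 73.9 CPM in the submucosal libraries of the small intestine (-3.55 ± 0.38 log2, adjusted p = 7.66e-07). Cfi, the protease that inactivates C3b, was listed at 0 in all 6 small intestinal myenteric libraries and at 4.09 to 36.3 CPM in the submucosal ones. Between the submucosal sites 1 was higher and 4 lower in colon, where 5.18% of all genes passed. Between the myenteric sites, where 3.19% passed, 3 genes were higher in colon and 0 lower: the classical proteases C1ra (1.37 ± 0.32 log2, adjusted p = 0.0219) and C1s1 (1.57 ± 0.40, adjusted p = 0.0351) and their inhibitor Serping1 (1.64 ± 0.34, adjusted p = 0.0119). The fibroblast, smooth muscle and neuronal markers given above for Cd55 moved in the same comparison, and their part in these values was not tested.

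The second question was how the members respond 2 h after LPS. None of the 8 passed in the small intestine, where 1.1% of all genes passed, by edgeR or by DESeq2, and 1 had an unadjusted p under 0.05. That member was Cfb, at 3.14, 449, 217 and 143 CPM after LPS and 49.5, 24.4, 36.5 and 35.0 CPM after PBS (2.48 ± 1.09 log2, adjusted p = 0.841). The fold change was 1.73 without LPS replicate 2, the library at 449 CPM, and up to 2.89 with another library left out. In 3 of 4 LPS libraries Cfb was above every PBS library, and LPS replicate 1 was below all of them.

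C3 had the same order, at 23.3, 2574, 1283 and 783 CPM after LPS and 543, 334, 417 and 304 CPM after PBS, with an adjusted p above the threshold. C2 was at 18.8, 163, 162 and 63.8 CPM after LPS and 83.1, 48.3, 44.4 and 25.9 CPM after PBS. LPS replicate 1 was thus the lowest library of the small intestine for C3, Cfb and C2. That library had a summed mesothelial marker level of 81.6 CPM (6 genes, among them Msln and Upk3b), against 602, 632 and 2138 CPM in the other LPS libraries and 441 to 1083 CPM in the PBS libraries. The mesothelium is the outer lining of the gut wall, and its part in these values was not tested.

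The fitted log2 fold changes of all 8 members in the small intestine were above 0, with a median of 1.17, where the median of all genes was -0.02. That of Cfd rested on 1 LPS library at 20.7 CPM, since the other 3 were at 0 and the PBS libraries at 0.442, 0, 1.81 and 0.120 CPM. C5ar1 was at 311, 55.1, 284 and 197 CPM after LPS and 45.7, 64.8, 97.2 and 130.0 CPM after PBS, groups that overlap. C4b was at 224 to 645 CPM after LPS and 137 to 449 CPM after PBS.

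**Figure D2:**
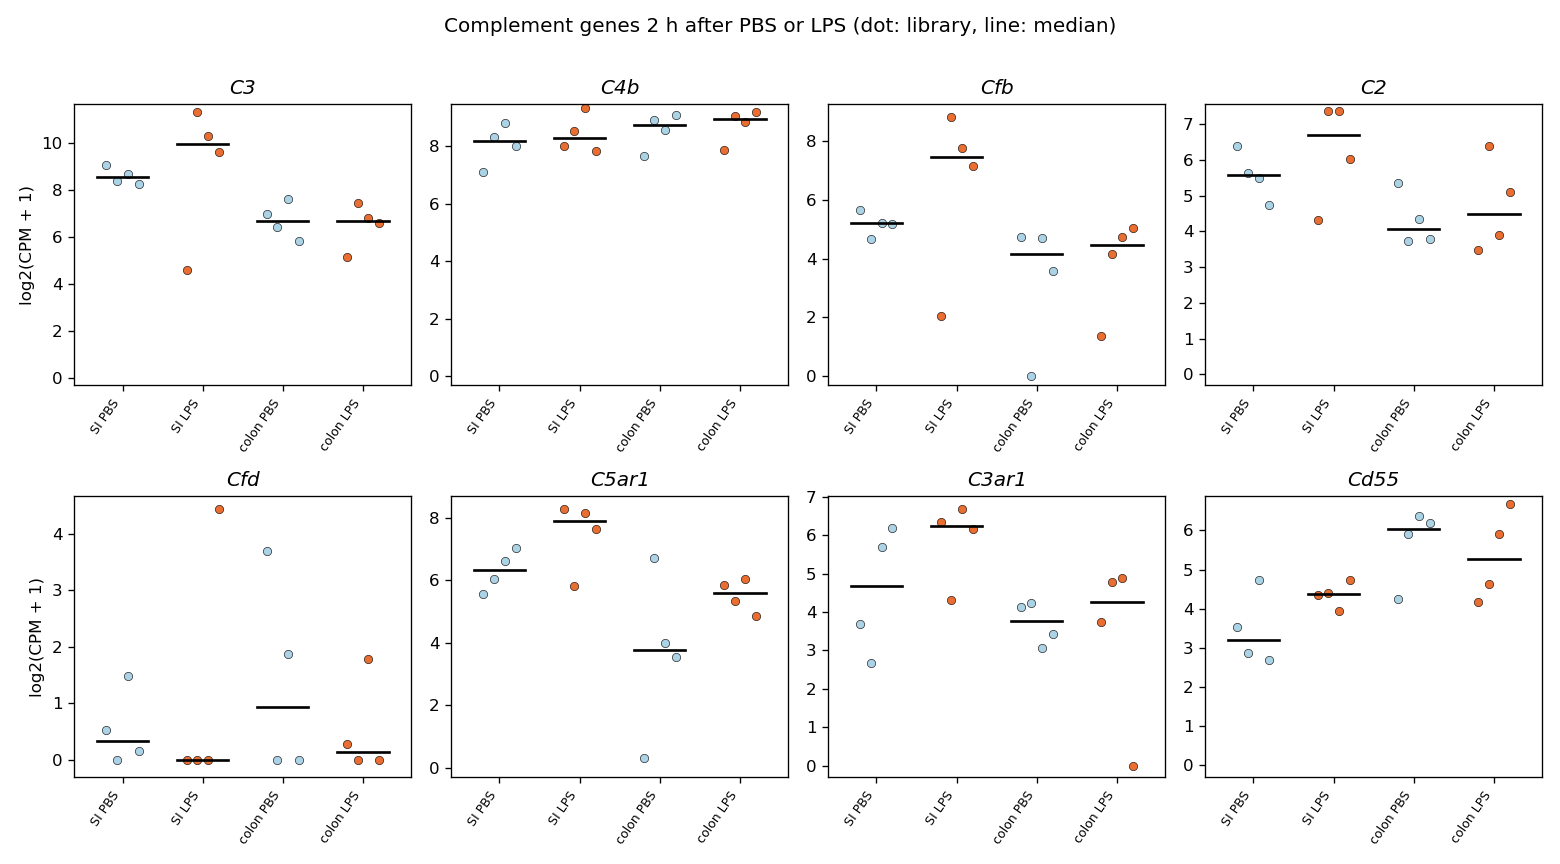
Levels of the 8 complement genes in 16 myenteric libraries 2 h after PBS or LPS, as log2(CPM + 1) by group, 1 dot a library, with a line at the median of the group. In the small intestine, C3, Cfb and C2 each have 1 LPS library below all PBS libraries and the other 3 above most PBS libraries, and in the colon the groups overlap.

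In the colon at 2 h none of the 8 passed by either tool and none had an unadjusted p under 0.05, where 0.778% of all genes passed. Cfb was at 1.56, 16.8, 25.9 and 31.9 CPM after LPS and 25.4, 0, 25.3 and 11.0 CPM after PBS. C3 was at 35.2, 177, 111 and 95.9 CPM after LPS and 125, 84.9, 199 and 56.5 CPM after PBS. Both groups overlapped for each gene. The difference between regions in the LPS response was tested directly: 0 members and 0% of all genes passed by edgeR, and 0 members and 452 genes had an unadjusted p under 0.05. DESeq2 called 0 members and 44 genes. Of the 42 other complement genes 21 were tested at 2 h, and 0 passed in either region by edgeR or DESeq2, with an unadjusted p under 0.05 for 1 in small intestine and 2 in colon.

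At 24 h after LPS, members passed the test in the colon, and Cfb, C2 and Cd55 were those that did. In wild-type colon Cfb was at 1095, 823, 1124, 1206 and 225 CPM after LPS and 141, 22.6, 37 and 22.2 CPM after PBS, with no overlap. The log2 fold change was 4.00 ± 0.91 (adjusted p = 0.00659, edgeR). Without the PBS library of mouse 14, the one at 141 CPM, it was 5.08 (adjusted p = 0.00412). The LPS libraries of mice 5 and 8, labelled wild type, were those without a Gpr37 count, and both, with that of mouse 3, are absent from the fits of mice numbered 11 and above. Those fits compare 2 LPS libraries (mice 13 and 16) with 4 PBS libraries in wild-type colon, and 3 with 3 in knockout colon.

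In knockout colon Cfb was at 256, 1896, 1251 and 908 CPM after LPS and 87.2, 39.8, 23.3, 90.0 and 143 CPM after PBS, again with no overlap. The log2 fold change was 3.82 ± 0.84 (adjusted p = 0.0191). The call was lost without the LPS library of mouse 17 or 2 or the PBS library of mouse 15 or 1, and when the knockout colonic groups were fitted alone (adjusted p = 0.109). Within mice numbered 11 and above the values were 4.12 (adjusted p = 0.00191) in wild type and 3.85 (adjusted p = 0.0386) in knockout.

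**Figure D3:**
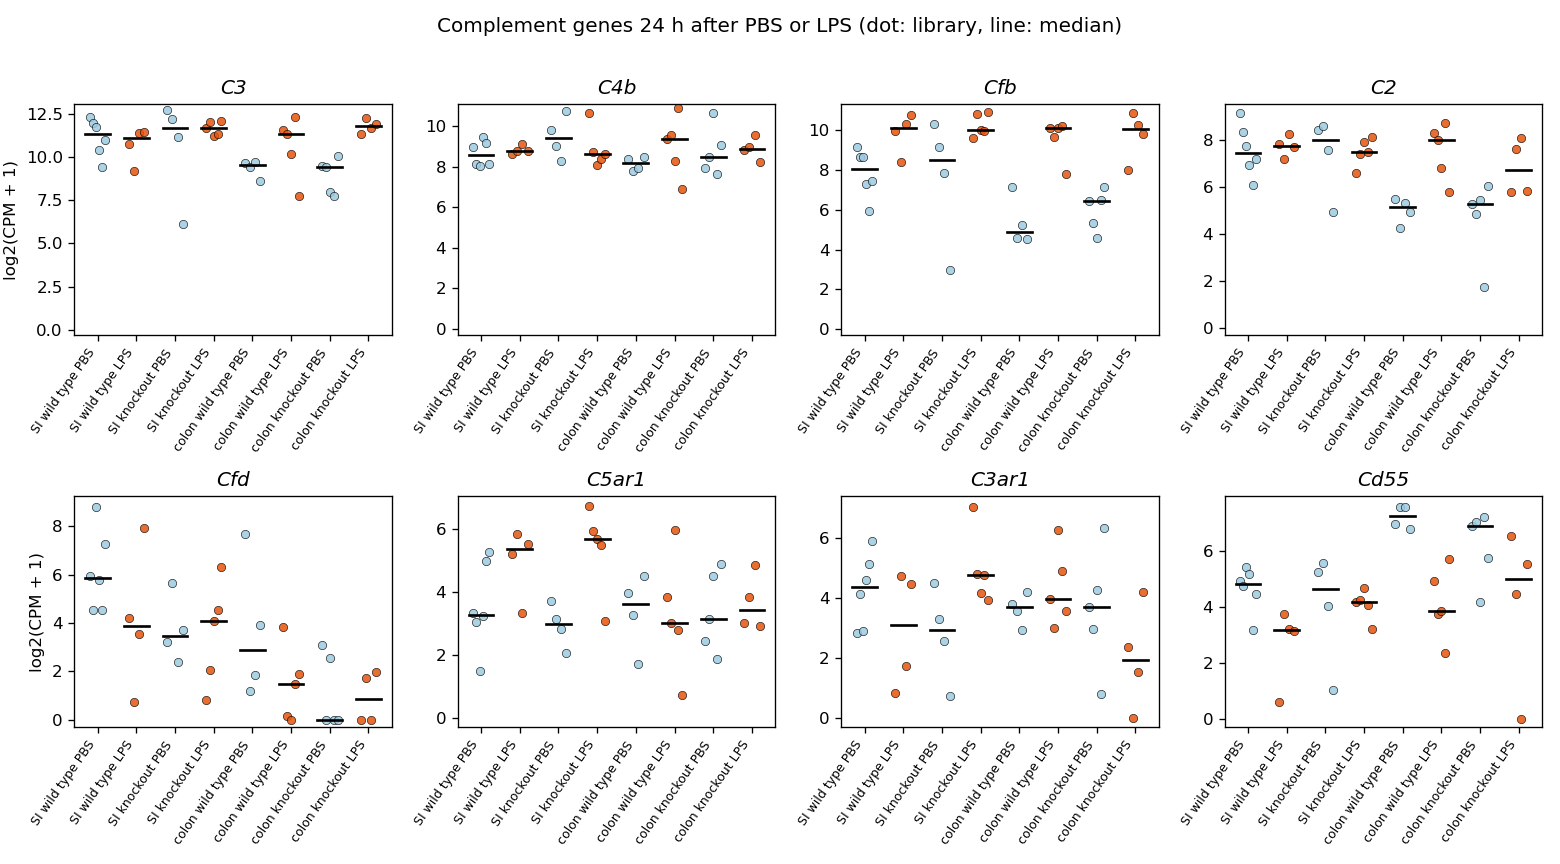
Levels of the 8 complement genes in 37 myenteric libraries 24 h after PBS or LPS in Gpr37 wild-type (WT) and knockout (KO) mice, as log2(CPM + 1) by group, 1 dot a library, with a line at the median of the group. In the colon of both genotypes every LPS library lies above every PBS library for Cfb, while Cfb, C3 and C2 after PBS are higher in small intestine than in colon at the medians.

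C2, which pairs with C4b as Cfb pairs with C3b, was at 319.6, 259.6, 112, 431 and 54.5 CPM after LPS and 44.8, 18.4, 39.1 and 30.0 CPM after PBS in wild-type colon. The groups did not overlap, and C2 rose by 2.83 ± 0.74 log2 (adjusted p = 0.0165). The call was lost without the PBS library of mouse 19 (adjusted p = 0.0681) or mouse 24 (adjusted p = 0.0510). Within mice numbered 11 and above C2 rose by 3.15 (adjusted p = 0.00804). In knockout colon C2 was at 53.8, 198, 272 and 56.5 CPM after LPS and 37.9, 27.9, 42.2, 2.32 and 66.3 CPM after PBS, groups that overlap (2.04 ± 0.69 log2, adjusted p = 0.191).

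C3, the shared substrate of both convertases, was at 3031, 2638, 1153, 5069.6 and 218 CPM after LPS and 823, 686, 859 and 391 CPM after PBS in wild-type colon. The library of mouse 8 lay below every PBS library and the other 4 lay above them. C3 did not pass there (1.81 ± 0.75 log2, adjusted p = 0.123), and passed within mice numbered 11 and above (2.06, adjusted p = 0.00921).

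In knockout colon C3 was at 2591, 4855, 3253 and 3881 CPM after LPS and 725, 702, 253, 212 and 1082 CPM after PBS, with no overlap. It did not pass over all mice (2.62 ± 0.74 log2, adjusted p = 0.0935) and passed within mice numbered 11 and above (2.82, adjusted p = 0.0141). DESeq2 called C3 in both genotypes.

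Cd55, the convertase inhibitor, moved the other way in wild-type colon. It was at 29.9, 12.5, 13.4, 4.09 and 51.7 CPM after LPS and 125, 191, 189 and 111 CPM after PBS, with no overlap, and fell by 2.79 ± 0.88 log2 (adjusted p = 0.0444). The call was lost in 8 of 9 fits that each left out 1 library (adjusted p up to 0.0962), the exception being the LPS library of mouse 8 (-3.38, adjusted p = 0.0313). It was also lost with a term for the mouse-number division (-1.98, adjusted p = 0.208). Within mice numbered 11 and above Cd55 passed (-2.87, adjusted p = 0.00242). In knockout colon Cd55 was at 91.2, 21.0, 0 and 44.9 CPM after LPS and 119.7, 133, 17.1, 149 and 52.7 CPM after PBS, groups that overlap. The change of Cd55 did not pass there (adjusted p = 0.591).

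In all, 3 of 8 members passed in wild-type colon, 2 higher and 1 lower, where 7.96% of all genes passed, 3.96% as higher and 4% as lower. In knockout colon 1 of 8 passed, as higher, where 0.718% of all genes passed and 0.637% did so as higher. The median of the 8 fitted changes was 1.29 in wild type and -0.08 in knockout, where the medians of all genes were -0.03 and -0.07. C4b did not pass in either genotype, at 658, 777, 309.7, 1906 and 120.3 CPM after LPS and 335, 224, 250.2 and 358 CPM after PBS in wild-type colon. Cfd was at 0 to 13.1 CPM after LPS and at 204, 1.25, 2.56 and 14.3 CPM after PBS in wild-type colon. C5ar1 was at 0.633 to 61.8 CPM after LPS and 2.25 to 21.6 CPM after PBS, and C3ar1 at 7.07 to 76.2 CPM and 6.57 to 17.3 CPM, each with overlapping groups.

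Markers of other cells moved with treatment in the colon. Summed fibroblast markers (7 genes, among them Pdgfra and Col1a1) were 353 to 9212 CPM after LPS and 13161 to 21890.3 CPM after PBS in wild type, without overlap, and 3 of 7 passed as lower. They were 1441 to 16434 CPM and 1386 to 16820.3 CPM in knockout. Summed neutrophil markers (8 genes, among them S100a8) were 13.4 to 2327 CPM after LPS and 1.06 to 151 CPM after PBS in wild type, and 5.08 to 496 CPM and 0.243 to 59.9 CPM in knockout, with 2 of 8 passing as higher in each. Epithelial markers summed to over 5000 CPM in 3 colonic libraries, and without these Cfb was at 4.22 log2 (adjusted p = 0.00798) in wild type and 3.88 (adjusted p = 0.0321) in knockout, and Cd55 at -3.33 (adjusted p = 0.0738) in wild type. Summed adipocyte markers were 392 to 2165 CPM (median 1601) after LPS and 87.6 to 657 CPM (median 309) after PBS in knockout, with 0 of 6 tested passing, and 124 to 1251 CPM (median 141) and 241 to 627 CPM (median 479) in wild type, with 1 of 6 tested passing as lower. Of 5 endothelial markers 1 passed as lower in wild type. The part of fibroblasts, neutrophils, adipocytes and endothelium in these values was not tested.

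In the small intestine at 24 h, none of the 8 members passed by edgeR in either genotype, where 7.17% of all genes passed in wild type and 0.718% in knockout. With an unadjusted p under 0.05 there were 2 in wild type (Cfb and Cd55) and 1 in knockout (C5ar1), and DESeq2 called 0 and 1. After PBS, the median of C3 in wild type was 2700.5 CPM there and 755 CPM in colon, a difference not tested here. C3 in wild type was at 684 to 5090.0 CPM after PBS and 1724, 589, 2740.2 and 2837 CPM after LPS, which overlap. In knockout C3 was at 6805, 4758, 2289.6 and 67.7 CPM after PBS and 3347, 4146, 2375, 2581 and 4332 CPM after LPS.

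Cfb in wild-type small intestine was at 60.0 to 576 CPM (median 286) after PBS and 994, 337, 1275 and 1728 CPM after LPS. The LPS library of mouse 8 lay inside the PBS range and the other 3 above it (1.88 ± 0.74 log2, adjusted p = 0.124). Cfb passed when the compared groups were fitted alone (adjusted p = 0.0399). In knockout it was at 1274, 580.3, 227 and 6.88 CPM after PBS and 792, 1814, 1024, 985 and 1932 CPM after LPS. The lowest PBS values of C3 (67.7 CPM) and Cfb (6.88 CPM) both came from mouse 7, whose library had 3341 CPM of glial and 33.3 CPM of mesothelial markers, against up to 3652 CPM of mesothelial markers in the other libraries of its group.

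Cd55 in wild-type small intestine was at 0.513, 12.6, 8.15 and 7.77 CPM after LPS and 7.93 to 41.9 CPM (median 27.6) after PBS (-1.86 ± 0.88 log2, adjusted p = 0.209), and passed within mice numbered 11 and above (-1.88, adjusted p = 0.0257). C5ar1 in knockout small intestine was at 107, 60.6, 51.2, 44.0 and 7.38 CPM after LPS and 12.1, 7.78, 6.00 and 3.17 CPM after PBS. The LPS library of mouse 21, at 7.38 CPM, lay inside the PBS range and the other 4 above it (2.89 ± 0.97 log2, adjusted p = 0.171, and 0.0227 by DESeq2). Summed macrophage markers in these groups were 187 to 4579.8 CPM (median 528) after LPS and 40.2 to 522 CPM (median 350.1) after PBS, and their part in the C5ar1 value was not tested. Mesothelial markers were 696 to 3379 CPM after PBS and 251 to 487 CPM after LPS in wild-type small intestine, without overlap. There 2 of 7 fibroblast and 1 of 6 tested adipocyte markers passed as lower and 5 of 8 neutrophil markers as higher. The part of these cells in the Cd55 and Cfb values was not tested.

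**Figure D4:**
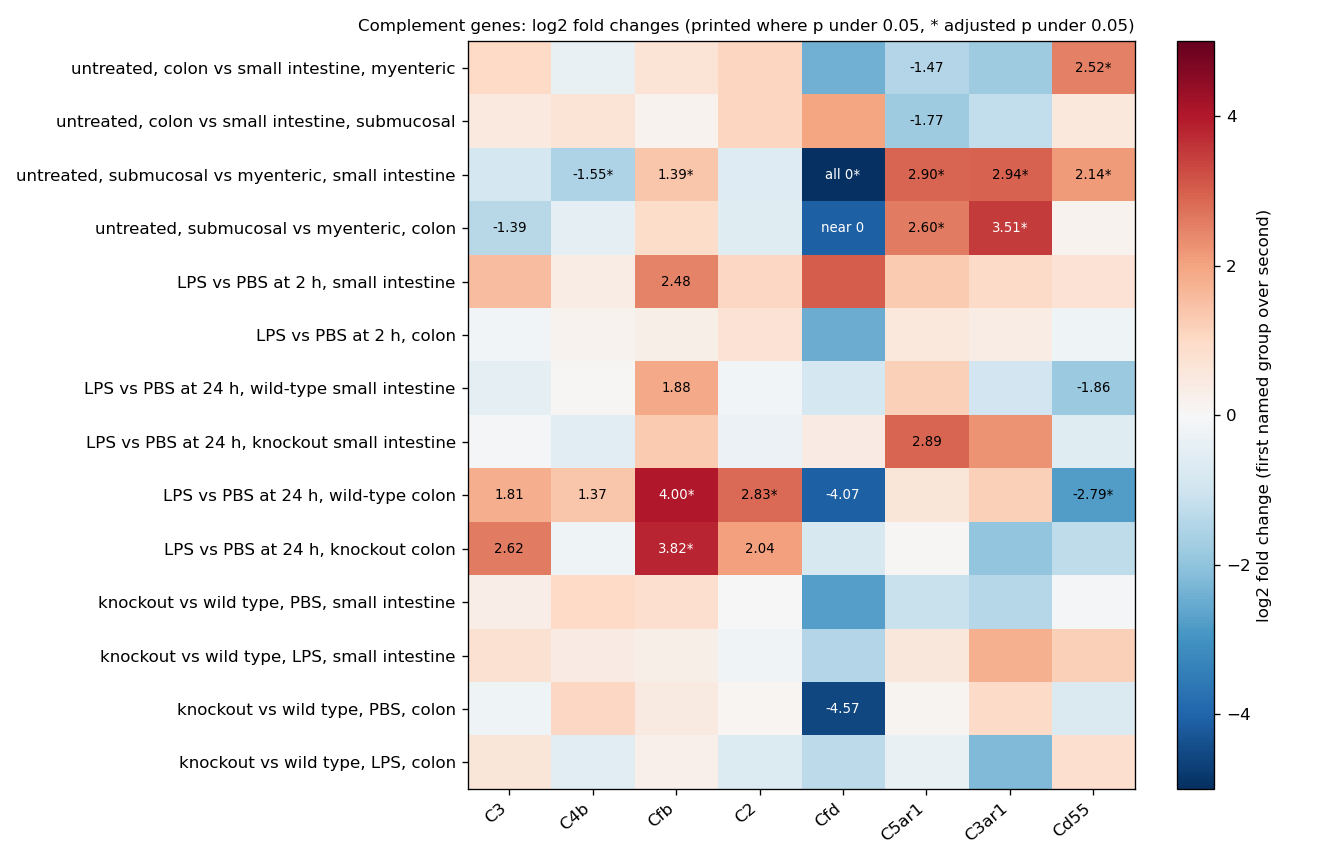
Fitted log2 fold changes (colour) of the 8 complement genes in 14 comparisons, with the value printed where the unadjusted p was under 0.05 and a star where the adjusted p was under 0.05. The Cfd cells marked "all 0" and "near 0" have submucosal libraries at or within 3 counts of 0, so their fitted value has no fixed size. The star on the first of these cells is a description only. Apart from Cd55 between the myenteric regions, the stars lie in the layer comparisons and in the colon 24 h after LPS.

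The difference between colon and small intestine in the 24 h response was tested directly, a comparison added after the values were seen. No member passed by edgeR or by DESeq2 in either genotype, and 0% of all genes passed by edgeR. Over all genes an unadjusted p was under 0.05 for 1126 in wild type and 615 in knockout, and DESeq2 called 121 and 72. In wild type 2 members had an unadjusted p under 0.05: C2, whose response was 2.95 ± 0.98 log2 larger in colon (adjusted p = 0.444), and C3 (2.30 ± 1.02, adjusted p = 0.595), which was at 1.57 (adjusted p = 0.813) with mouse as a block. In knockout 5 members had one, in both directions and all with an adjusted p of 1. The response was larger in colon for C3 (2.67 ± 1.01 log2), Cfb (2.49 ± 1.10) and C2 (2.34 ± 0.95), and smaller in colon for C5ar1 (-2.82 ± 1.30) and C3ar1 (-4.21 ± 1.61). With 1 library left out C3 ran from 2.06 to 3.02 and C2 from 1.85 to 2.69, while C3ar1 ran from -5.74 to -2.91, C5ar1 from -3.43 to -2.31 and Cfb from 1.49 to 2.83. C3ar1 was at -5.74 without the colonic LPS library of mouse 21 and at -2.91 without the colonic PBS library of mouse 7, C5ar1 at -2.31 also without the latter, and C3 at 2.06 and Cfb at 1.49 without the small intestinal PBS library of mouse 12. Under the other alternatives C3 ran from 2.06 to 2.99, C2 from 2.16 to 2.93, C3ar1 from -4.31 to -2.07, C5ar1 from -3.04 to -1.91 and Cfb from 1.03 to 2.66. Within mice numbered 11 and above 0 members passed in either genotype, and 7 genes passed in wild type and 0 in knockout. The call of Cfb in colon and its absence in small intestine therefore do not show a difference between the regions.

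Genotype was compared in 4 ways. Between knockout and wild type 0 of 8 members passed after PBS in small intestine or colon, where 0% of all genes passed, and 0 passed after LPS in small intestine, where 0.0134% passed, or in colon, where 0.429% passed. DESeq2 called 0 members in these 4 comparisons. After PBS an unadjusted p was under 0.05 for 256 genes in small intestine and 629 in colon, and DESeq2 called 58 and 74 genes. The 1 member with an unadjusted p under 0.05 was Cfd in PBS colon, at 7.53, 0, 4.86, 0 and 0 CPM in knockout and 204, 1.25, 2.56 and 14.3 CPM in wild type (adjusted p = 1). After LPS, the fitted differences of the members ran from -1.46 to 1.78 log2 in small intestine and from -2.20 to 0.83 in colon.

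The response to LPS was not found to differ between genotypes for any member. The interaction test passed for 0 members and 0% of all genes in either region by edgeR and for 0 members by DESeq2, which called 59 genes in small intestine and 344 in colon. An unadjusted p was under 0.05 for 578 genes in small intestine and 2009 in colon. Among members 1 had one, C3ar1 in small intestine (3.19 ± 1.55 log2, adjusted p = 1). It ran from 2.19 to 4.07 with 1 library left out, the lowest being without the LPS knockout library of mouse 11 and the highest without the PBS knockout library of mouse 12. C3ar1 there was at 131, 26.9, 17.2, 26.0 and 14.3 CPM after LPS and 21.7, 8.88, 4.98 and 0.661 CPM after PBS in knockout, and at 0.770, 25.7, 2.33 and 21.3 CPM after LPS and 6.11 to 58.4 CPM after PBS in wild type. The library at 131 CPM, of mouse 11, had 4579.8 CPM of macrophage markers. The spread between libraries of a group left wide intervals on these differences, so equal responses are not shown. Within mice numbered 11 and above 0 members passed in any genotype comparison or interaction. More genes passed than over all mice in 3 of these: 334 against 64 between genotypes in LPS colon, 23 against 2 in LPS small intestine, and 25 against 0 for the interaction in colon. In that interaction the lowest adjusted p of a member was that of Cd55, whose change after LPS was 1.53 log2 higher in knockout than in wild-type colon (adjusted p = 0.356).

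Of the 42 other complement genes 28 were tested at 24 h. In wild-type colon, where 7.96% of all genes passed, 1 passed as higher, the complement receptor subunit Itgam (4.45 ± 1.44 log2, adjusted p just under the threshold), and 1 as lower, the pore inhibitor Cd59b, which was at 0 to 0.236 CPM after LPS and 1.54 to 2.42 CPM after PBS. In wild-type small intestine, where 7.17% of all genes passed, 0 passed as higher and 2 as lower, a share near that of all genes. These were Cd59b, at 0 to 0.185 CPM after LPS and 1.55 to 3.93 CPM after PBS, and the second C5a receptor gene C5ar2, listed at 0 in all LPS libraries and at 0 to 6.43 CPM after PBS. In knockouts, where 0.718% of all genes passed in each region, 0 of 28 passed by edgeR in either, with an unadjusted p under 0.05 for 7 in small intestine and 5 in colon, and DESeq2 called 2 in each. Between genotypes 0 of 28 passed by edgeR in any of the 4 comparisons, with 0 to 7 at an unadjusted p under 0.05 and 0 to 2 called by DESeq2.

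From library to library C4b followed glial markers and the receptor genes macrophage markers, while C3, Cfb and C2 shared several marker lists. Deviations of each library from its group mean were correlated with those of the mean log2 CPM of each marker list, over the markers that passed the filter. This is a description, since libraries of a group share a site and a treatment and differ in depth. Over the 37 libraries at 24 h, Spearman's rho was 0.87 for C4b with glial markers, 0.85 for C5ar1 and 0.69 for C3ar1 with macrophage markers, 0.73 for Cfb and 0.46 for Cfd with adipocyte markers, and 0.60 for C3 with fibroblast markers. There C3 was also at 0.55 with adipocyte and 0.49 with endothelial markers, and C2 at 0.47 with mesothelial and 0.46 with adipocyte markers. Cfb was at 0.46 with fibroblast markers, and Cd55 was highest with endothelial markers, at 0.44. C4b with glial markers was at 0.70 over the 16 libraries at 2 h and 0.57 over the 22 untreated ones. C5ar1 with macrophage markers was at 0.66 and 0.89. Not every pair kept its value across experiments. Cfb with adipocyte markers was at 0.04 at 2 h and 0.09 in the untreated libraries, where it was at 0.51 with epithelial markers. With mesothelial markers Cfb was at 0.56 in the untreated libraries, 0.54 at 2 h and 0.51 at 24 h. C3 with fibroblast markers was at 0.16 and 0.35, and in the untreated libraries C3 was highest with endothelial markers, at 0.56. At 2 h C3 and C2 were highest with mesothelial markers, at 0.74 and 0.70.

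**Figure D5:**
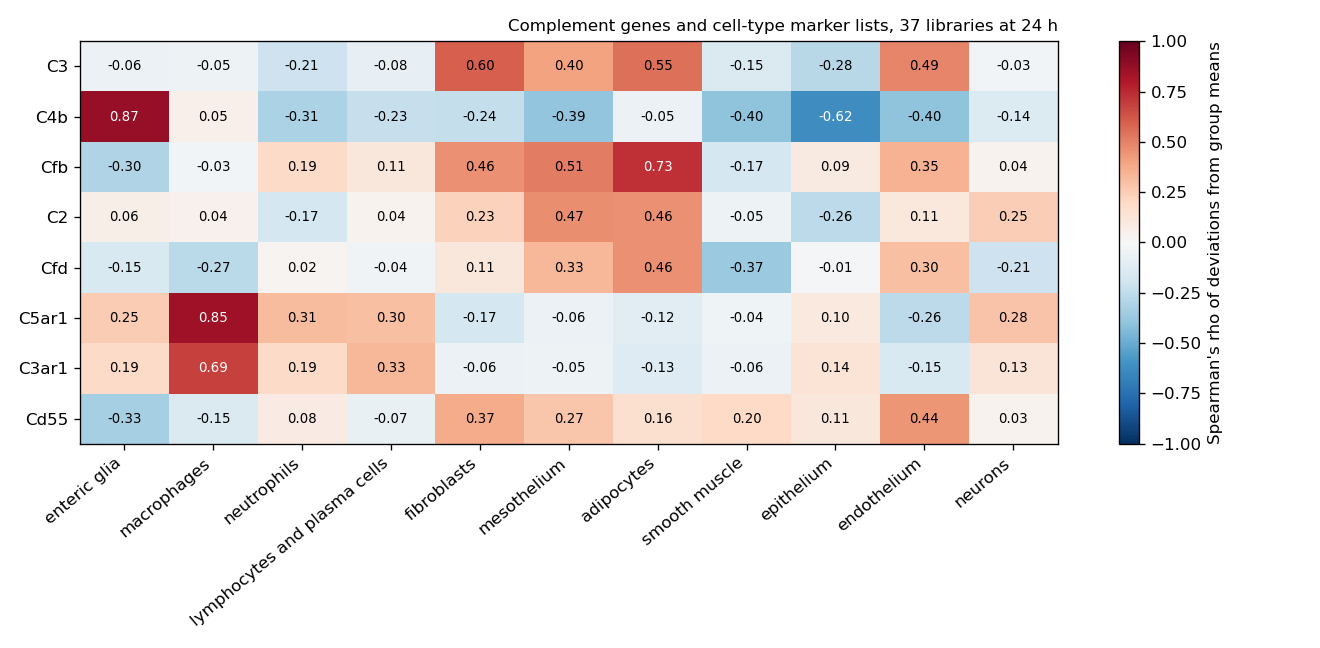
Spearman's rho between the deviations of each complement gene and of the mean log2 CPM of each list of cell-type markers from their group means, over 37 libraries at 24 h (colour and printed value). The darkest cells are C4b with enteric glia (0.87) and C5ar1 with macrophages (0.85), and C3, Cfb and C2 have their highest values with fibroblasts, adipocytes and mesothelium.

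The next correlations used log2 CPM itself, not deviations from group means, so differences between groups enter them. Among all genes tested, those most like C4b over the 22 untreated libraries (Spearman's rho of log2 CPM) were Peg13, Add1 and Slitrk6 (0.90, 0.90 and 0.89), and over the 37 libraries at 24 h Rassf4, Agrn and Cab39l (0.82, 0.79 and 0.78). For C5ar1 they were Mrc1, C1qb and C1qc (all 0.98) and then C1qc, C1qa and Nckap1l (0.86, 0.84 and 0.84), and for C3ar1 Tifab, C1qc and Cybb (0.98, 0.98 and 0.97) and then Ptprc, Cyth4 and Adam8 (0.77, 0.74 and 0.72). At 24 h the members C3 and C2 were each other's closest gene (0.81), and Cfb was second for C3 (0.78), while Cfb itself was closest to Ctps, Angptl4 and Chil1 (all 0.86). In the untreated libraries C3 was closest to Zfp397, Castor1 and Aebp1 (0.80, 0.79 and 0.75), C2 to Gbp2, Mkx and Tpm4 (0.83, 0.81 and 0.80) and Cfb to Apol7a, Il18 and Cabcoco1 (0.88, 0.85 and 0.85). Cd55 was closest to Zfp280c, C1ra and Ssc5d (0.94, 0.84 and 0.84) in the untreated libraries and to C1qtnf3, Ecm2 and Ecm1 (0.88, 0.81 and 0.81) at 24 h. Cfd was closest to Timp4, Doc2b and Car3 (0.88, 0.86 and 0.86) and then to Adipoq, Lrrn4 and Zfp185 (all 0.67).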

How the data were processed

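Counts per gene were deposited by the authors as 2 whole-number tables, per the file headers, covering the untreated and 2 h libraries and the 24 h libraries. GRCm38, Trim Galore 0.4.4, STAR 2.5.3 and DESeq2 are named in the submitters' processing notes; the counter, annotation and strand setting are not given in the sources used here. For each experiment, genes were filtered with filterByExpr by group, scaled by TMM and tested in 1 edgeR 4.0.16 quasi-likelihood fit over all groups (R 4.3.3), with Benjamini-Hochberg adjustment over the 14090 (untreated), 13107 (2 h) and 14903 (24 h) genes tested and calls at an adjusted p under 0.05. SE is the absolute log2 fold change over the square root of F. CPM uses TMM-scaled library sizes, and CPM per kilobase divides by the GENCODE M21 exon union. Levels from the separately scaled experiments were not tested against each other. The fits were tested on simulated data.

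The genes named are all 8 members, the listed pathway genes that passed with the largest change of their list (up to 3 per list), and the 3 genes of highest Spearman correlation with each member; C1s1, Cfi and the marker examples are named from those lists. The members, lists and the mouse-number division were chosen with earlier results of these data known. The glial marker list is used without 1 gene, which is not reported here. The labels give mouse numbers only at 24 h, so elsewhere p-values measure the spread between samples that may be technical. Of 143 pairs of libraries within groups, 0 held identical counts. Alternatives were RLE scaling, no filter, sex as a covariate, a replicate block, the compared groups alone, DESeq2 1.42.0, a mouse-number covariate, mice numbered 11 and above, and each library left out. Fits without 3 colonic libraries of high epithelial markers and the tests of region differences at 24 h were added after seeing the data. Untreated and 2 h libraries share a sex and number across groups. The correlation of their deviations ran from -0.10 to 0.31. At 24 h, libraries that share a mouse ran from -0.04 to 0.24, so these correlations cannot decide whether the numbers pair libraries. The main fits took no pairing, and the replicate block is given as an alternative. All columns of both tables were matched to samples.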

Additional observations from a re-analysis of the deposited data

Results flagged for a closer look

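In groups of 4 to 6 libraries, 19 of 127 member values had 1 library far from the rest by Dixon's test. The test marks about 1 group in 20 by chance only for normally distributed values, which was not checked here. The number flagged is therefore not compared with chance. Of these, 8 concerned Cfd. It was highest at 0.289 CPM in colonic submucosal replicate 4, at 2.46 CPM in the colon and 20.7 CPM in the small intestine 2 h after LPS (replicates 3 and 4), and at 24 h at 13.1 CPM in LPS wild-type colon (mouse 13), 241 CPM in LPS wild-type small intestine (mouse 13), 79.4 CPM in LPS knockout small intestine (mouse 21), 204 CPM in PBS wild-type colon (mouse 14) and 442 CPM in PBS wild-type small intestine (mouse 23). Among the convertase genes, colonic myenteric replicate 1 was highest for both C3 (1576 CPM) and Cfb (134 CPM), and small intestinal submucosal replicate 1 was lowest for C2 (0 CPM). Cfb was highest in PBS wild-type colon of mouse 14 (141 CPM). C4b was highest in LPS knockout small intestine of mouse 11 (1608 CPM) and in PBS knockout colon of mouse 1 (1604 CPM); these libraries had 1992 and 3361 CPM of glial markers.

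The receptor genes stood apart in 5 groups. C5ar1 was highest at 105 CPM in PBS colon replicate 2 at 2 h and at 61.8 CPM in LPS wild-type colon of mouse 3. C3ar1 was highest at 135 CPM in small intestinal myenteric replicate 4, at 131 CPM in LPS knockout small intestine of mouse 11 and at 79.1 CPM in PBS knockout colon of mouse 7. The last 2 libraries had 4579.8 and 2622 CPM of macrophage markers.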

How the results depend on the processing

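Of the 152 member fold changes, 35 had an unadjusted p under 0.05, and none of these changed sign under any alternative; of the other 117, 56 changed sign under at least 1. Of 267 values of the 35 under alternatives other than a left-out library, 252 kept their side of the threshold, 7 lost the call and 8 gained it, and with a library left out 400 of 416 kept it, 14 lost it and 2 gained it. RLE scaling and sex as a covariate changed no call of a member. The number of members passing moved by over 1.5 times in 5 comparisons, and the cause was not tested. Between colonic layers it was 2, 1 (C5ar1) with the compared groups alone, 3 by DESeq2 (with Cfd) and with the replicate block (with Cfb), and 2 to 4 with a library left out, the 4 (Cfb, Cfd, C5ar1 and C3ar1) being without colonic myenteric replicate 1. After LPS at 24 h it was 0 in wild-type small intestine and 1 with the compared groups alone (Cfb) or mice numbered 11 and above (Cd55). In wild-type colon it was 3, and 1 to 3 with a library left out. There Cd55 was lost with no filter (adjusted p = 0.0550), with a mouse-number term and without libraries of high epithelial markers, and C3 was gained by DESeq2 and within mice numbered 11 and above. Between small intestinal layers it was 6, among them Cfd, whose call is a description only. The number was 5 where Cfd did not pass the filter on low counts (the compared groups alone, and without myenteric replicate 1, 2 or 6). In knockout small intestine it was 0, and 1 (C5ar1) by DESeq2. In knockout colon it was 1, 0 with the compared groups alone, 2 (C3 and Cfb) by DESeq2 and within mice numbered 11 and above, and 0 to 1 with a library left out. With the title's replicate number as a block it was 0 in knockout colon (Cfb 3.89, adjusted p = 0.0573), and Cd55 in wild-type colon had an adjusted p of 0.103; groups compared by treatment or genotype at 24 h share no mouse, while colon and small intestine share 15. In the untreated and 2 h libraries the replicate block changed calls of all genes in the myenteric regions from 449 to 246, and 14 of 16 libraries at 2 h and 12 of 22 untreated ones correlated best with their own number, as a hint from the data. With mouse as a block, no member passed in the region comparison at 24 h. Over all genes DESeq2 called 2255 against 1186 in wild-type colon, 1871 against 1069 in wild-type small intestine, 474 and 527 against 107 each in knockout colon and small intestine, 987 against 449 and 1149 against 730 between untreated regions, 260 against 144 and 279 against 102 at 2 h, and 719 against 64 and 182 against 2 between genotypes after LPS. The compared groups alone gave 412, 1704, 7 and 47 in the 24 h order above, and 1902 against 3069 between colonic layers. Depth limits Cfd, where 3 counts are up to 1.51 CPM in 1 library.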

Other observations

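C3 in the small intestinal myenteric libraries of control animals stood at different levels in the 3 experiments. Its median was 286 CPM in the untreated libraries (72.5 to 379.8, n = 6), 376 CPM 2 h after PBS (304 to 543, n = 4), 2700.5 CPM 24 h after PBS in wild type (684 to 5090.0, n = 6) and 3524 CPM in knockout (67.7 to 6805, n = 4). The experiments were scaled separately and were not tested against each other. Median mesothelial marker sums in the same 4 groups were 116, 611, 1886 and 2470.3 CPM. In the colonic myenteric controls the median of C3 was 348, 105, 755 and 702 CPM in the same order, and that of the mesothelial sums was 201, 36.9, 102 and 165 CPM.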
